A study of Mus musculus with 24 samples.

Results

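The genes described here are the muscle Mef2 transcription factors and the class IIa histone deacetylases that bind them: Mef2a, Mef2c, Mef2d, Hdac4, Hdac5, Hdac7 and Hdac9. They were chosen by name, with earlier results of these data known, as the members of both families given for this account. They are 7 of the 55487 gene identifiers in the count files. RNA was sequenced from the tibialis anterior (TA) muscle of 24 male C57BL/6J mice of genotype WT, aged 5 to 7 weeks, in 4 groups of 6. PBM Sedentary mice were shaved, depilated and anesthetized, and their lower limbs were exposed to an 830 nm LED at 25 mW/cm2 for 20 min (30 J/cm2), a treatment called photobiomodulation therapy (PBMT). Sedentary mice were shaved and anesthetized for 20 min without light. PBM Fatigue and Fatigue mice had the same treatment or control handling, ran on a treadmill to exhaustion 24 h later and were killed at once. The left TA was taken 24 h after PBMT in the sedentary groups also. No group had sham light or heat alone. Library names place the fatigued mice in 1 sequencing project and the sedentary mice in another, so that exercise state and sequencing project cannot be told apart in these data.

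MEF2 proteins bind DNA and activate genes of muscle differentiation, contraction and metabolism. Class IIa histone deacetylases bind MEF2 on chromatin and repress its targets, with little deacetylase activity of their own and with corepressor complexes that contain Hdac3. Calcium-dependent and other kinases phosphorylate them in active muscle, after which 14-3-3 proteins hold them in the cytoplasm and MEF2 is released.

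As deposited by the authors, the values were whole-number counts per gene and mouse. Summed over genes, a mouse had from 43271093 to 46904076 counts in Sedentary, from 46327516 to 52775844 in PBM Sedentary, from 56792327 to 68726155 in Fatigue and from 53122528 to 68566029 in PBM Fatigue mice. Levels are given as CPM, the usual scale of counts relative to the normalized total of a mouse. All 7 members had enough counts to be tested in every comparison. Hdac9 had the fewest, with 60 to 556 counts per mouse. Mef2b, the remaining gene of the Mef2 family, had 0 to 8 counts per mouse and was not tested. Separate samples are all that the labels give about the animals, with nothing on cages or litters, so p-values measure the spread between these samples.

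The samples carried the transcripts of fast skeletal muscle. The summed level of 10 fast-muscle markers was 149543 CPM in Sedentary, 154939 CPM in PBM Sedentary, 197263 CPM in Fatigue and 192671 CPM in PBM Fatigue mice (means, n = 6), with Myh4 or Atp2a1 the most abundant. Summed markers of slow muscle stood at 97.4, 94.9, 102 and 129 CPM in the same order, and those of lymphocytes at 0.197, 0.464, 0.272 and 0.232 CPM. In bulk muscle, fewer cells of a type and less RNA per cell cannot be told apart.

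Sedentary replicate 4 had the lowest or the highest level of its group in all 7 members, and was singled out after seeing the data. It had the lowest Mef2a (98.5 CPM), Mef2c (439 CPM) and Hdac9 (4.83 CPM) of its group. It also had the highest Mef2d (268 CPM), Hdac4 (43.3 CPM), Hdac5 (97.1 CPM) and Hdac7 (20.1 CPM). Its whole profile stood apart. Scaled to sampling noise (chi-square per degree of freedom over genes), it differed from the other controls by 433 to 466, and these differed from each other by 13.5 to 74.2. Its summed fast-muscle markers were at 194849 CPM, where the other 5 controls were at 130771 to 148929 CPM. Values without it are therefore given for many of the members' results and for some counts of partner genes.

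Per kilobase of exonic length, Mef2c and Mef2d were the most abundant members and Hdac9 the least. Mef2c, a factor needed for the integrity of sarcomeres, stood at 44.8 ± 8.77 CPM per kb (mean ± SD, n = 6) in Sedentary mice. Mef2d, broadly expressed with a muscle-specific splice form, stood at 39.3 ± 3.48 CPM per kb, which overlapped with Mef2c through Sedentary replicate 4 alone (Mef2c 27.9, Mef2d 44.9 CPM per kb). In the other 5 controls Mef2c was higher, at 43.9 to 52.0 beside 36.0 to 42.3 CPM per kb. Mef2a, the family member with roles in muscle regeneration and the heart, was lower, at 9.07 ± 1.46 CPM per kb. Among the deacetylases, the level of Hdac5, a signal-responsive repressor in muscle, was 7.73 CPM per kb in Sedentary mice. Hdac7, best known from endothelium and thymocytes, and Hdac4, which rises after denervation, stood at 2.12 and 1.97 CPM per kb and did not differ beyond their spread. Hdac9, itself a MEF2 target gene, stood at 0.467 CPM per kb. For comparison on the same scale, Hdac3 stood at 13.7 CPM per kb and Hdac2 at 13.5 CPM per kb in Sedentary mice.

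Shares within each family were taken from the levels per kilobase. Of the summed Mef2 level per kb, Mef2c made up 47.7% in Sedentary, 50.0% in PBM Sedentary, 44.4% in Fatigue and 42.7% in PBM Fatigue mice (means of 6). Mef2d made up 42.6%, 39.3%, 45.6% and 47.0% in the same order, and Mef2a between 9.69% and 10.7%. In the Sedentary group, replicate 4 had the lowest Mef2c share (35.1%) and the highest Mef2d share (56.4%), and so moved both means. The sums themselves were 93.1, 101, 93.2 and 92.7 CPM per kb. Of the summed class IIa level, Hdac5 made up 62.7%, 62.0%, 58.9% and 56.1%. The share of Hdac4 was 16.0%, 15.2%, 18.9% and 22.1%, and that of Hdac9 3.94%, 4.52%, 1.77% and 1.21%. The class IIa sums were 12.3, 12.3, 13.6 and 14.2 CPM per kb. These shares are descriptions and were not tested.

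**Figure D1:**
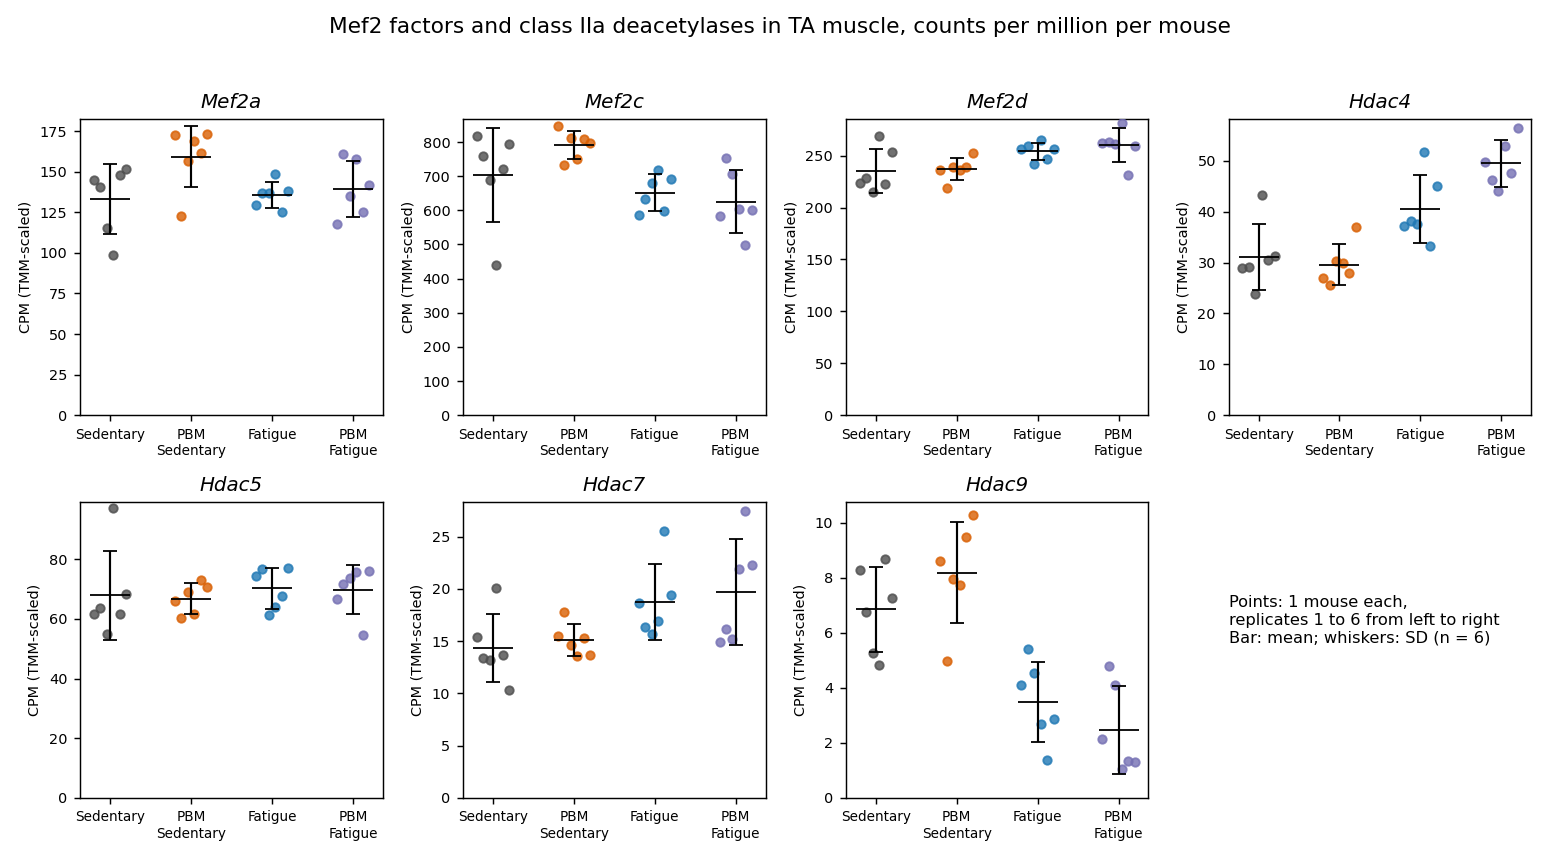
Level of each member in each mouse in CPM (vertical axis, linear from 0) by group (horizontal axis), with points for the 6 mice in order of replicate number, a bar for the mean and whiskers for the SD. Hdac4 lies at 44.0 to 56.5 CPM in PBM Fatigue mice, above the 25.5 to 37.0 CPM of PBM Sedentary mice, and Hdac9 lies lower in both fatigued groups than in most sedentary mice.

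The first comparison asks what PBMT did in sedentary muscle. None of the 7 members passed in edgeR at an adjusted p under 0.05 (0 of 7), where 4 of 14177 genes tested passed, or 0.0282%. At an unadjusted p under 0.05, 1 of 7 members passed (Mef2a), beside 7.63% of all genes. DESeq2 and limma voom gave 0 of 7 members as well, with 60 and 50 genes in all.

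Mef2a was at 98.5 CPM in the lowest, 143 CPM at the median and 152 CPM in the highest Sedentary mouse. In PBM Sedentary mice it was at 123, 165 and 173 CPM (lowest, median, highest). All PBMT-treated mice but replicate 2 lay above every control (5 of 6), so that the groups overlapped through that 1 mouse. The log2 difference was 0.26 (SE 0.113, 95% interval 0.01 to 0.51, edgeR adjusted p = 0.638, exact permutation p = 0.0714). Without Sedentary replicate 4 the Mef2a difference was 0.18 (adjusted p = 0.550).

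Mef2c was at 439, 741 and 818 CPM in Sedentary and at 733, 803 and 846 CPM in PBM Sedentary mice (lowest, median, highest). The groups overlapped, with 1 of 6 treated mice above all controls and Sedentary replicate 4 far below the rest. The log2 difference of 0.17 (SE 0.121, interval -0.10 to 0.44, edgeR adjusted p = 0.704) was 0.06 without that control. For Hdac9 the log2 difference was 0.26 (SE 0.173, interval -0.12 to 0.65, adjusted p = 0.692), with 2 of 6 treated mice above all controls. The other 4 members had log2 differences between -0.07 (Hdac4) and 0.08 (Hdac7), with intervals reaching from -0.33 to 0.36. Without Sedentary replicate 4, Hdac4 was at 0.04, Hdac5 at 0.11, Hdac7 at 0.19 and Hdac9 at 0.17, so that the signs of Hdac4 and Hdac5 turned. Over all genes of this comparison, the log2 differences had a Spearman correlation of 0.303 with exonic length and of -0.306 with GC content, a description across 14170 and 14165 genes that share the same libraries. Mef2a was at 0.17 with the length trend removed, the lowest of its 10 alternatives.

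In fatigued muscle the same question was asked with the 6 PBM Fatigue and 6 Fatigue mice, and Hdac4 had the smallest p of the members. It was at 33.3, 37.9 and 51.8 CPM in Fatigue and at 44.0, 48.7 and 56.5 CPM in PBM Fatigue mice (lowest, median, highest). Treated mice were higher on the whole, 2 of 6 lay above all controls, and Fatigue replicates 4 and 6 fell within the range of the treated group. The fold was 1.22 (log2 0.29, SE 0.0987, interval 0.07 to 0.51, unadjusted p = 0.0105, edgeR adjusted p = 1.00, exact permutation p = 0.0260). By p-value Hdac4 was at rank 24 among the 14574 genes tested. None of these passed in edgeR at an adjusted p under 0.05, and 1.58% had an unadjusted p under 0.05.

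No member passed in edgeR at an adjusted p under 0.05 in this comparison (0 of 7), nor did any of the 14574 genes tested (0.0%). At an unadjusted p under 0.05, Hdac4 alone passed (1 of 7), beside 1.58% of all genes, while DESeq2 gave 2 genes in all and 0 of 7 members, and limma voom 0. Hdac9 was at 1.37, 3.49 and 5.40 CPM in Fatigue and at 1.06, 1.75 and 4.78 CPM in PBM Fatigue mice (lowest, median, highest). The groups overlapped, with 3 of 6 treated mice below all controls and a wide interval (log2 -0.51, SE 0.416, -1.44 to 0.41). Without 1 mouse the difference ran from -0.82 (PBM Fatigue replicate 2) to -0.35 (Fatigue replicate 2), and with limma voom it was -0.80. With a block for replicate number it was -0.62 with a smaller SE of 0.197, and that of Hdac4 was 0.30 (SE 0.0656), both at an adjusted p of 1.00. Matched by replicate number, which the labels do not call a pairing, Hdac9 was lower in the treated mouse in 6 of 6 cases and Hdac4 higher in 6 of 6. Control and treated mouse were close in replicate 5 for Hdac9 (1.37 and 1.35 CPM) and in replicate 4 for Hdac4 (51.8 and 52.9 CPM). These matched counts have no share of all genes beside them and are not read as support for an effect. The other 5 members had log2 differences from -0.06 (Mef2c) to 0.07 (Hdac7).

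Whether the PBMT effect differed between fatigued and sedentary muscle was tested as an interaction in the fit to all 24 mice. None of the 7 members passed in edgeR (0 of 7), where 1 of 15108 genes did (0.00662%). At an unadjusted p under 0.05, Hdac4 passed (1 of 7) beside 4.4% of all genes, and DESeq2 and limma voom each gave 0 of 7 members and 1 gene in all. The effect on Hdac4 was larger in fatigued muscle by 0.36 on the log2 scale (SE 0.165, interval 0.02 to 0.71, adjusted p = 0.946), and by 0.24 without Sedentary replicate 4. For Hdac9 the difference of effects was -0.77 (SE 0.468, interval -1.75 to 0.20), for Mef2c -0.23 and for Mef2a -0.22, all at an adjusted p of 0.946. Without Sedentary replicate 4 these were -0.69 for Hdac9, -0.13 for Mef2c and -0.15 for Mef2a.

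The levels of fatigued and sedentary mice were then compared, first in the control mice. Hdac4 was higher and Hdac9 lower in Fatigue than in Sedentary mice, and the other 5 members did not pass. These are 2 of 7 members, beside 18.6% of the 15108 genes tested in edgeR. Of these, 1 was higher, beside 9.1% of all genes, and 1 was lower, beside 9.49%. The groups overlapped in all 7 members, where 4.08% of all genes were higher without overlap and 3.63% lower without overlap.

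Hdac4 was at 23.8, 29.8 and 43.3 CPM in Sedentary and at 33.3, 37.9 and 51.8 CPM in Fatigue mice (lowest, median, highest). Every fatigued mouse lay above 5 of the 6 sedentary controls, and 2 of 6 lay above Sedentary replicate 4 as well. The fold was 1.30 (log2 0.38, SE 0.117, interval 0.13 to 0.62, edgeR adjusted p = 0.0248, exact permutation p = 0.0325). Without Sedentary replicate 4 it was 0.49 (adjusted p = 0.00124). The call was lost without Fatigue replicate 4 (0.30, adjusted p = 0.0754) or 6 (adjusted p = 0.0513), without Sedentary replicate 1 (0.0505), 2 (0.0506) or 3 (0.0528), with the length trend removed (0.25, adjusted p = 0.144) and with the GC trend removed (0.33, adjusted p = 0.0513). In the fits without 1 mouse that lost the call, the log2 change lay between 0.30 and 0.36. The call was also lost in the fit to the 12 mice compared (0.39, adjusted p = 0.0518). With a replicate block and length removal together it was lost as well (0.26, adjusted p = 0.0675). Over all genes of this comparison, the log2 differences had a Spearman correlation of 0.215 with exonic length and of 0.190 with GC content, again as a description.

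Hdac9 was at 4.83, 7.01 and 8.68 CPM in Sedentary and at 1.37, 3.49 and 5.40 CPM in Fatigue mice (lowest, median, highest). Of the fatigued mice, 5 of 6 lay below all controls, and Fatigue replicate 2 overlapped with Sedentary replicates 3 and 4. Hdac9 fell by 0.97 on the log2 scale (fold 0.511, SE 0.331, interval -1.66 to -0.28, edgeR adjusted p = 0.0437, exact permutation p = 0.00649). The call held in 9 of the 24 fits that left out 1 mouse, Sedentary replicate 4 among them (-1.05, adjusted p = 0.0310), and its direction in all 24. It was lost without Fatigue replicate 1, 4, 5 or 6, PBM Fatigue replicate 1, Sedentary replicate 1, 2, 3, 5 or 6, or PBM Sedentary replicate 1, 3, 4, 5 or 6. In those fits the log2 change lay between -1.02 and -0.80 and the adjusted p between 0.0526 and 0.0941. It was also lost with no filter on low counts (adjusted p = 0.115) and with the GC trend removed (-0.93, adjusted p = 0.0584).

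Among the other members of this comparison, Hdac7 was at 10.3, 13.5 and 20.1 CPM in Sedentary and at 15.7, 17.8 and 25.5 CPM in Fatigue mice (lowest, median, highest). Each fatigued mouse lay above each control but Sedentary replicate 4, which 1 of 6 exceeded. The log2 difference of Hdac7 was 0.39 (SE 0.153, edgeR adjusted p = 0.0774). Without that replicate Hdac7 was at 0.51 (adjusted p = 0.0146), Mef2d at 0.15 (adjusted p = 0.0427) and Mef2c at -0.22 (adjusted p = 0.0558). The share of all genes called without that mouse is not given here, and calls over all genes also moved without 1 mouse, as given below. Without PBM Fatigue replicate 5, which enters through the shared spread, Hdac7 was at 0.39 (adjusted p = 0.0456). With limma voom, Hdac7 (adjusted p = 0.00560), Mef2d (0.00690) and Mef2c (0.0295) passed with all mice. In edgeR with all mice, Mef2d was at 0.11 (SE 0.0588, adjusted p = 0.193), Mef2c at -0.11, Hdac5 at 0.05 and Mef2a at 0.03.

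In the PBMT-treated mice, Hdac4 was higher and Hdac9 and Mef2c were lower in fatigued than in sedentary muscle. These are 3 of 7 members beside 26.8% of the 15108 genes tested, with 1 higher (14.1% of all genes) and 2 lower (12.7%). The groups did not overlap for Hdac4, which was fully higher (5.98% of all genes), and for Hdac9, which was fully lower (5.2%). This comparison shares no mouse with that of the controls, but both use the fit to all 24 mice and both set the projects against each other.

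Hdac4 was at 25.5, 28.9 and 37.0 CPM in PBM Sedentary and at 44.0, 48.7 and 56.5 CPM in PBM Fatigue mice (lowest, median, highest). All 6 fatigued mice lay above all 6 sedentary mice. The fold was 1.67 (log2 0.74, SE 0.117, interval 0.50 to 0.99, edgeR adjusted p = 4.69e-05), and the exact permutation p of 0.00216 is the smallest that 6 mice against 6 can give. Over the 10 alternatives the log2 change lay between 0.62 and 0.78.

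Hdac9 was at 4.99, 8.29 and 10.3 CPM in PBM Sedentary and at 1.06, 1.75 and 4.78 CPM in PBM Fatigue mice (lowest, median, highest). All 6 fatigued mice lay below all 6 sedentary mice, with PBM Fatigue replicate 2 and PBM Sedentary replicate 2 nearly meeting. Hdac9 fell by 1.74 on the log2 scale (fold 0.299, SE 0.339, interval -2.45 to -1.03, edgeR adjusted p = 5.92e-04, exact permutation p = 0.00216, again the smallest possible). The log2 change lay between -2.09 and -1.71 over the 10 alternatives, and Hdac4 and Hdac9 passed in each of these and in all 24 fits without 1 mouse.

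Mef2c was at 733, 803 and 846 CPM in PBM Sedentary and at 499, 602 and 755 CPM in PBM Fatigue mice (lowest, median, highest). Here 5 of 6 fatigued mice lay below all sedentary mice, and PBM Fatigue replicate 2 fell within their range. Mef2c fell by 0.34 on the log2 scale (fold 0.790, SE 0.111, interval -0.57 to -0.11, edgeR adjusted p = 0.0238, exact permutation p = 0.00649). With the GC trend removed the change was -0.18 (adjusted p = 0.147), where the log2 differences of all genes had a Spearman correlation of 0.316 with GC content and of 0.0604 with length. The call was also lost without PBM Fatigue replicate 1, 4, 5 or 6 or PBM Sedentary replicate 1, 3 or 5, with the log2 change between -0.33 and -0.29 and the adjusted p between 0.0515 and 0.0664.

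Of the other 4 members, Hdac7 had a log2 difference of 0.38 (SE 0.152, adjusted p = 0.0630), with 3 of 6 fatigued mice above all sedentary mice. Hdac7 passed without PBM Fatigue replicate 1 (0.45, adjusted p = 0.0296), 2 (0.44, 0.0391) or 3 (0.45, 0.0340), PBM Sedentary replicate 2 (0.43, 0.0461), Sedentary replicate 4 (0.38, 0.0408) or Fatigue replicate 5 (0.38, 0.0451). It also passed in DESeq2 (adjusted p = 0.0494) and, with Mef2d, in limma voom (0.0139 and 0.0126). Mef2d was at 0.13 (SE 0.0588, adjusted p = 0.0955), with 5 of 6 above all sedentary mice, and turned to -0.02 with the GC trend removed. Mef2d passed without PBM Fatigue replicate 5 (0.16, adjusted p = 0.0498). Mef2a was at -0.19 (adjusted p = 0.162), passed without PBM Sedentary replicate 2 (-0.26, adjusted p = 0.0449) and with the length trend removed (-0.22, adjusted p = 0.0304), and Hdac5 at 0.06 (adjusted p = 0.700). Side by side, the log2 differences between fatigued and sedentary mice without and with PBMT were 0.38 and 0.74 for Hdac4, -0.97 and -1.74 for Hdac9, and -0.11 and -0.34 for Mef2c. The interaction given above is the test of whether they differ, and no member passed it.

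**Figure D2:**
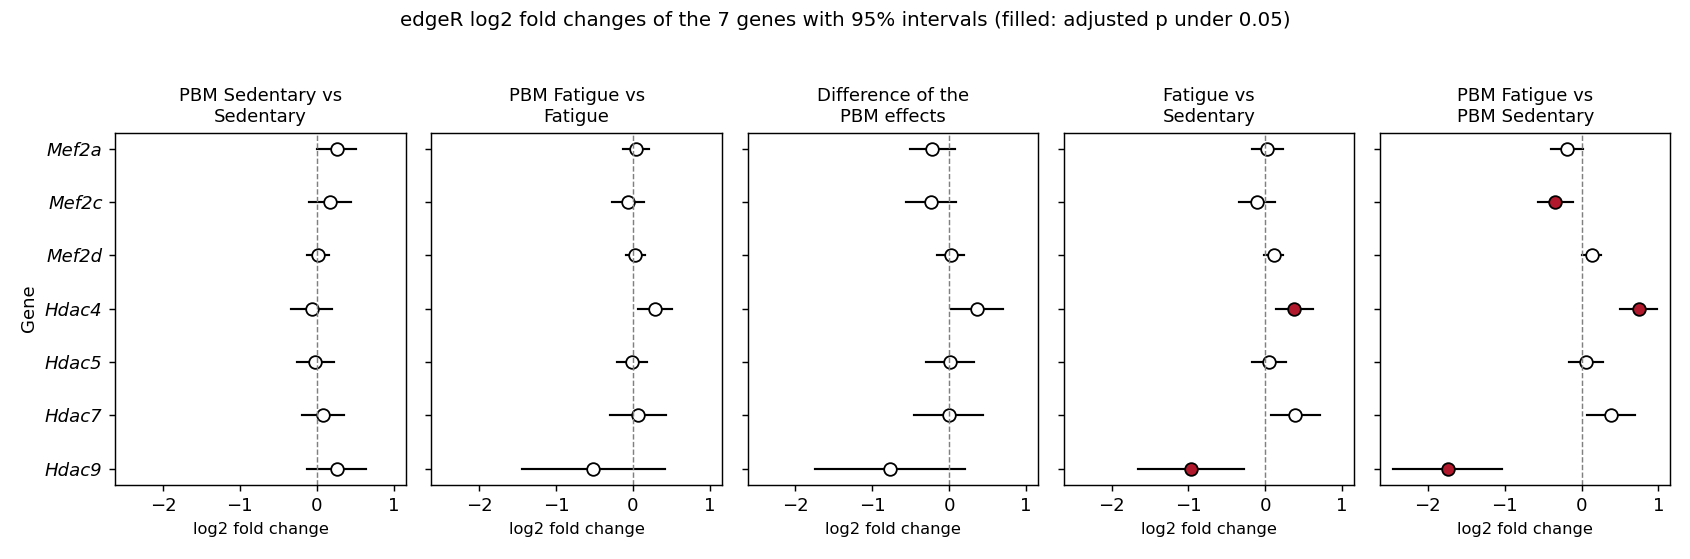
Log2 fold change of each member (horizontal axis, edgeR) with its 95% interval, 1 panel for each comparison and 1 for the difference of the PBMT effects, where filled points passed at an adjusted p under 0.05. Filled points appear in the panels of fatigued against sedentary mice, for Hdac4 (0.38 and 0.74), Hdac9 (-0.97 and -1.74) and, with PBMT, Mef2c (-0.34).

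The partners of these proteins were read from lists written from general knowledge, with earlier results of these data known. With PBMT in sedentary muscle, 0 genes passed in edgeR in each of the 7 lists, namely kinases of class IIa deacetylases, 14-3-3 proteins, corepressors, activators of MEF2, MEF2 targets of muscle, the denervation genes linked to Hdac4 and Myog, and other deacetylases. At an unadjusted p under 0.05, 2 of 16 kinases were higher and 2 lower, 2 of 11 corepressors and 1 of 18 activators were higher, and 2 of 26 targets were lower, beside 7.63% of all genes in either direction. DESeq2 and limma voom each called 1 kinase and 1 target, Sik1 and Nr4a1.

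Sik1, a salt-inducible kinase that phosphorylates class IIa deacetylases, was at 16.8, 20.8 and 27.5 CPM in Sedentary and at 8.64, 10.9 and 16.7 CPM in PBM Sedentary mice (lowest, median, highest). All 6 treated mice lay below all controls, the highest treated mouse just under the lowest control. The log2 difference was -0.80 (SE 0.163, edgeR adjusted p = 0.113, DESeq2 adjusted p = 0.00209, limma voom adjusted p = 0.0277), and -0.90 without PBM Sedentary replicate 5 (edgeR adjusted p = 0.0438). Nr4a1, an orphan nuclear receptor gene regulated by MEF2 and activity, was at 164, 198 and 332 CPM in Sedentary and at 78.6, 124 and 150 CPM in PBM Sedentary mice. Its 6 treated mice also lay below all controls, at a log2 difference of -0.85 (SE 0.173, edgeR adjusted p = 0.119, DESeq2 adjusted p = 0.00124, limma voom adjusted p = 0.0399). Both genes were named for the smallest p of their lists, so the separation of their groups is no further support. The share of all genes whose groups did not overlap is not given for this comparison. Nr4a1 also passed in edgeR with a block for replicate number (-0.84, SE 0.0936, adjusted p = 0.00873), and with length removal beside it (adjusted p = 0.00969). No marker of another cell type passed in edgeR in this comparison. At an unadjusted p under 0.05, 2 of 10 endothelial markers were higher and 1 lower, 1 of 7 smooth-muscle and 1 of 5 satellite-cell markers were higher, and 1 of 7 mesenchymal and 2 of 7 myeloid markers were lower, beside the same 7.63%. All 7 myeloid markers (median -0.55) and all 7 mesenchymal markers (median -0.18) had negative log2 differences, and their part in these values was not tested.

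The smallest p in each other list of that comparison belonged to Ncor1, a corepressor that recruits Hdac3 (log2 0.18), Ep300, a histone acetyltransferase and MEF2 coactivator (0.25), Musk, the receptor kinase of the neuromuscular junction (0.31), Ywhaz, a 14-3-3 protein (-0.13), and Hdac6, a cytoplasmic deacetylase (0.12), with adjusted p between 0.648 and 0.747. All 7 of the 14-3-3 genes had negative log2 differences, with a median of -0.09 beside -0.0019 over all genes. The list medians of the others lay between -0.06 and 0.10.

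With PBMT in fatigued muscle, 0 genes passed in edgeR, DESeq2 or limma voom in each of the 7 lists. At an unadjusted p under 0.05, 3 of 13 denervation genes, 1 of 11 corepressors and 1 of 26 targets were higher and 0 genes were lower, beside 1.58% of all genes in either direction. Runx1, a transcription factor gene induced by denervation, had the largest difference among the genes of smallest p (log2 0.80, SE 0.241, adjusted p = 1.00), with 5 of 6 treated mice above all controls. Rcan1, an inhibitor of calcineurin and its transcriptional target, was at 0.51 (2 of 6), Rfxank, an ankyrin-repeat protein that binds class IIa deacetylases, at 0.24 (1 of 6), Klf6 at 0.21 (3 of 6), Hdac10 at 0.14 (2 of 6), Sik3 at 0.13 (3 of 6) and Ywhaz at 0.07 (3 of 6). The denervation list had a median of 0.22 beside 0.0041 over all genes, and the other lists had medians from -0.01 to 0.03. No marker passed in edgeR here, and at an unadjusted p under 0.05 the slow-muscle Myl3 alone was higher (0.58, SE 0.198). Markers of slow muscle (7 of 7, median 0.44), mesenchymal cells (7 of 7, 0.16) and tendon (5 of 5, 0.26) had positive differences, and those of Schwann cells negative ones (6 of 6, -0.30). Their part in the values of this comparison was not tested. In the test of the difference between PBMT effects, 0 genes of any list passed in edgeR, DESeq2 or limma voom, and at an unadjusted p under 0.05 the genes were 1 of 16 kinases higher (Sik1, log2 1.01) and 2 lower, and 1 of 26 targets higher (Klf6, 0.29), beside 4.4% of all genes in either direction. Rcan1 stood at 0.45, Gadd45a, a stress gene of denervated muscle, at 0.53, Rfxank at 0.23, Ywhaz at 0.21 and Hdac6 at -0.16, with adjusted p of 0.946. The differences between PBMT effects were positive in all 7 myeloid (median 0.68), 7 mesenchymal (0.35), 7 slow-muscle (0.30) and 5 tendon markers (0.28) and negative in all 6 Schwann cell markers (-0.30), and their part was not tested.

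Partner genes of 6 lists in control mice and of all 7 lists in PBMT-treated mice passed when fatigued and sedentary muscle were compared. In the main edgeR fit, 9.1% of all genes were higher and 9.49% lower in controls, and 14.1% higher and 12.7% lower with PBMT. The counts of list genes and of cell markers from that fit stand beside these shares. Counts given below for other settings or without 1 mouse have no share of all genes beside them. They describe the settings and are not read as results about the lists. Among 16 kinases tested, 5 were higher and 0 lower in Fatigue than in Sedentary mice, with a list median of 0.12 beside -0.01 over all genes. Sik1 rose from a median of 20.8 CPM to 59.4 CPM, and all 6 fatigued mice lay above all controls (log2 1.43, SE 0.281, edgeR adjusted p = 0.00114). Prkd1, a protein kinase D, rose by 0.51 (adjusted p = 0.00915, 5 of 6 above all controls). Sik3, a further salt-inducible kinase, rose by 0.24 (adjusted p = 0.0143, 5 of 6). That call was lost with the length trend removed (0.15, adjusted p = 0.171) or the GC trend removed (0.18, adjusted p = 0.145). With either trend removed, 2 kinases were higher, and 1 was lower with the length trend removed. In the PBMT-treated mice, 4 kinases were higher and 3 lower. Sik1 (log2 2.45, SE 0.292, 6 of 6), Sik3 (0.25, 6 of 6) and Sik2 (0.43, 5 of 6) rose, and the AMPK catalytic subunits Prkaa2 (-0.52, 4 of 6 below) and Prkaa1 (-0.30, 6 of 6 below) fell with Camk2g (-0.24, 4 of 6 below), at adjusted p from 3.24e-06 to 0.0105. With the GC trend removed, Sik3 (0.11, adjusted p = 0.356) and Prkaa1 (-0.12, adjusted p = 0.203) no longer passed.

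The 14-3-3 genes that passed were higher in fatigued muscle, 2 of 7 in control mice and 3 of 7 in PBMT-treated mice. With PBMT, 5 were higher without Sedentary replicate 4 or with limma voom, and 4 with the GC trend removed. In controls, 4 were higher with limma voom and 1 with the length trend removed. Ywhaz rose by 0.26 in controls (SE 0.0735, adjusted p = 0.0142, 5 of 6 above all sedentary mice) and by 0.47 with PBMT (SE 0.0736, adjusted p = 3.81e-05, 6 of 6). Ywhah rose by 0.28 (adjusted p = 0.0267, 4 of 6) and by 0.35 (adjusted p = 0.00469, 5 of 6), and Ywhab with PBMT by 0.22 (adjusted p = 0.00249, 5 of 6). In controls the Ywhah call was lost with the length trend removed (adjusted p = 0.0555) and without Fatigue replicate 2 (0.0592) or 3 (0.0526) or Sedentary replicate 5 (0.0549) or 6 (0.0527). In those fits the log2 change of Ywhah lay between 0.25 and 0.27. The medians of this list were 0.14 and 0.27.

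Of the 11 corepressors and deacetylase partners, 3 were higher and 0 lower in control mice, and 2 higher and 0 lower with PBMT. In the latter, 1 was higher and 2 lower with the length trend removed, and 2 higher and 2 lower with the GC trend removed. In control mice, 1 was lower with either trend removed. Cabin1, a repressor of MEF2 and inhibitor of calcineurin, rose by 0.46 in controls (adjusted p = 9.67e-04, 5 of 6) and by 0.30 with PBMT (adjusted p = 0.0168, 5 of 6). The second of these calls was lost without PBM Fatigue replicate 5 (0.25, adjusted p = 0.0541) and with the length trend removed (0.25, adjusted p = 0.0570). It was also lost with the GC trend removed (0.10, adjusted p = 0.341). Tbl1xr1, a subunit of the Ncor complexes, rose by 0.36 in controls (adjusted p = 0.00721, 6 of 6).

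Of the 18 activators and coactivators, 5 were higher and 1 lower in control mice, and 4 higher and 3 lower with PBMT. Ppargc1a, the coactivator PGC-1α of oxidative metabolism, rose by 2.10 in controls (SE 0.343, adjusted p = 2.29e-04, 6 of 6 above all sedentary mice) and by 2.05 with PBMT (SE 0.342, adjusted p = 1.61e-04, 5 of 6). Rcan1 rose by 1.35 (SE 0.192, adjusted p = 4.29e-05, 6 of 6) and 1.79 (SE 0.195, adjusted p = 6.62e-07, 6 of 6), and Map2k3, a kinase upstream of p38, by 0.34 (adjusted p = 0.00181, 6 of 6) and 0.41 (adjusted p = 1.46e-04, 6 of 6). The calcineurin subunit gene Ppp3cc fell by 0.28 in controls (adjusted p = 0.00937, 5 of 6 below) and by 0.23 with PBMT (adjusted p = 0.0231, 5 of 6 below). With PBMT the acetyltransferase gene Kat2b (-0.33, adjusted p = 0.00234, 3 of 6 below) and the calcineurin gene Ppp3cb (-0.23, adjusted p = 0.0321, 1 of 6 below) also fell.

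Both calcineurin calls of the PBMT-treated mice depended on single mice and settings. The Ppp3cc call was lost without PBM Fatigue replicate 3 (0.0554), 4 (0.0507) or 5 (0.0528) or PBM Sedentary replicate 3 (0.0575) or 5 (0.0580), where the adjusted p is in brackets. It was also lost with no filter (0.0681) and with the GC trend removed (0.0647). In all these fits the log2 change of Ppp3cc lay between -0.221 and -0.204. The Ppp3cb call was lost without PBM Fatigue replicate 1 (0.0580), 3 (0.0648) or 5 (0.0904) or PBM Sedentary replicate 1 (0.0810), 3 (0.0838), 4 (0.0557), 5 (0.0592) or 6 (0.0917). It was also lost with no filter (0.0676), in the fit to the 12 mice compared (0.0563) and with the GC trend removed (0.874). The log2 change of Ppp3cb was -0.0238 with the GC trend removed, and between -0.225 and -0.179 in the other fits that lost the call.

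Among 26 MEF2 target genes of muscle, 8 were higher and 2 lower in control mice, and 8 higher and 2 lower with PBMT. The lists share genes. Ppargc1a is counted here and as a coactivator, and Myog here and as a denervation gene. Hdac3 is counted as a corepressor partner and as an other deacetylase. Ckm is also a fast-muscle marker, and Tnni1, Tnnc1 and Myl2 are also slow-muscle markers. Xirp1, which encodes an actin-binding protein of damaged and growing myofibrils, was at 55.0, 62.3 and 104 CPM in Sedentary and at 443, 498 and 1370 CPM in Fatigue mice (lowest, median, highest). The groups did not overlap in controls (log2 3.22, SE 0.319, adjusted p = 9.19e-07) or with PBMT (log2 3.26, SE 0.319, adjusted p = 2.53e-07). Jun rose by 0.81 in controls (SE 0.176, adjusted p = 0.00255, 4 of 6), and Nr4a1 by 1.36 with PBMT (SE 0.237, adjusted p = 2.14e-04, 5 of 6). The lower genes were Hdac9, given above, and Klf2, an endothelial and quiescence transcription factor gene, which fell by 0.93 (adjusted p = 0.00711, 5 of 6) and by 0.83 (adjusted p = 0.00948, 6 of 6). The list medians were 0.13 and 0.17. In controls, 4 targets were higher with the GC trend removed, 5 with the length trend removed and between 4 and 9 without 1 mouse. Without Sedentary replicate 4, the calls of control mice were 9 targets higher and 3 lower, 5 kinases higher and 1 lower, 3 of the 14-3-3 genes higher, 5 activators higher and 2 lower, and 1 other deacetylase higher.

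Of the 13 denervation genes tested, 4 were higher and 0 lower in control mice, and 5 higher and 0 lower with PBMT. Trim63, a ubiquitin ligase gene of muscle atrophy, rose 3.02-fold (SE of the log2 change 0.229, adjusted p = 4.97e-05) and 4.51-fold (log2 2.17, SE 0.233, adjusted p = 6.61e-07). Runx1 rose by 1.86 (SE 0.280, adjusted p = 6.03e-05) and 2.48 (SE 0.280, adjusted p = 6.87e-07), and Musk by 1.34 (SE 0.205, adjusted p = 6.22e-05) and 1.70 (SE 0.203, adjusted p = 1.33e-06). For all 3 genes, 6 of 6 fatigued mice lay above all sedentary mice in both comparisons. The list medians were 0.52 and 0.37. With the GC trend removed, 3 genes of this list were higher in the PBMT-treated mice, and 3 to 5 without 1 mouse. In controls, 1 gene was lower with the length trend removed or with limma voom.

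The 7 other deacetylases gave 0 calls in control mice by edgeR. There 1 was lower at an unadjusted p under 0.05 (Hdac2, log2 -0.14, adjusted p = 0.112, 4 of 6 below all controls). In control mice limma voom called 1 higher, and edgeR with the GC trend removed called 1 lower. With PBMT, Hdac2 fell by 0.20 (SE 0.0618, adjusted p = 0.0159, 5 of 6 below). The call was lost without PBM Sedentary replicate 6 (-0.15, adjusted p = 0.0615) and with no filter (-0.20, adjusted p = 0.0611). It was also lost with the GC trend removed (-0.08, adjusted p = 0.555), where 1 gene of the list other than Hdac2 was lower.

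Some markers of other cells passed between fatigued and sedentary muscle, to be read beside 9.1% of all genes higher in controls and 14.1% with PBMT. In controls, 3 of 10 endothelial, 2 of 7 smooth-muscle, 1 of 7 mesenchymal, 1 of 7 myeloid, 1 of 5 satellite-cell and 1 of 5 tendon markers were higher, and 5 of 10 fast-muscle markers. Of 7 slow-muscle markers, 1 was higher (Atp2a2) and 1 lower (Myl3) in controls, and 1 was higher with PBMT. With PBMT, 6 of 7 mesenchymal and 5 of 7 myeloid markers were higher, as were 4 of 10 endothelial markers, 2 of 7 smooth-muscle, 2 of 5 tendon, 1 of 5 satellite-cell, 1 of 5 adipocyte and 3 of 10 fast-muscle markers. The lower markers with PBMT were the endothelial Emcn, the satellite-cell Pax7 and the keratinocyte Krt10. No erythrocyte or Schwann cell marker passed in edgeR in either comparison, where 2 erythrocyte markers were lower in controls at an unadjusted p under 0.05.

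The summed mesenchymal markers stood at 858, 727, 1276 and 1532 CPM in Sedentary, PBM Sedentary, Fatigue and PBM Fatigue mice, led by Col3a1, Dcn, Col1a1 and Col1a1. Summed myeloid markers stood at 55.6, 37.3, 61.9 and 65.7 CPM, led by Lyz2, and endothelial markers at 436, 433, 501 and 513 CPM, led by Cdh5. In the same order, tendon markers led by Fmod stood at 153, 157, 307 and 363 CPM, satellite-cell markers led by Chodl at 13.2, 14.2, 15.7 and 16.3 CPM, and smooth-muscle markers led by Rgs5 at 643, 650, 699 and 644 CPM. Adipocyte markers led by Cfd stood at 23.6, 22.5, 37.0 and 46.2 CPM, erythrocyte markers led by Hbb-bs at 102, 98.6, 86.4 and 88.0 CPM, and keratinocyte markers led by Krt10 at 2.86, 7.23, 2.18 and 1.65 CPM. The second of these keratinocyte means was raised by PBM Sedentary replicate 4, at 25.6 CPM, where the others of its group were at 1.61 to 9.36 CPM. Krt15 was at 0 in every Fatigue and PBM Fatigue mouse, Krt1 in every PBM Fatigue mouse and Cd8a in every Sedentary mouse. PBM Fatigue replicate 5 had the highest mesenchymal (3176 CPM), tendon (818 CPM), myeloid (130 CPM) and adipocyte (107 CPM) sums of its group. The other 5 mice were at 885 to 1612, 179 to 386, 34.3 to 73.9 and 17.5 to 65.0 CPM in that order, so that this mouse raised all these means. The part of these cell types in the levels of the Mef2 and deacetylase genes was not tested.

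Between mice of the same group, some members moved together. The Pearson r over all 24 mice, after subtracting group means from log2 CPM, was computed for the 21 pairs as a description, since the mice of a project share sequencing and each library has its own depth and base composition. Mef2d and Hdac5 had the highest value, 0.829, and stayed at 0.848 with the GC trend of each mouse removed and at 0.746 without Sedentary replicate 4. By project it was 0.883 in the sedentary and 0.731 in the fatigued mice. Mef2d and Hdac4 had an r of 0.706, with 0.630 after GC removal, 0.573 without that mouse, and 0.877 and 0.409 by project.

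Mef2a and Mef2c, the members with the lowest GC content, had an r of 0.744, which was 0.534 with the GC trend removed, 0.596 without Sedentary replicate 4, and 0.789 and 0.648 by project. Hdac7 ran opposite to Hdac9 (r = -0.711, -0.730 with the GC trend removed, -0.716 without that mouse, -0.499 and -0.815 by project) and to Mef2c (-0.661, -0.549, -0.551, -0.709 and -0.667 in the same order). Mef2c and Hdac9 had an r of 0.517, with 0.641, 0.593, 0.622 and 0.590 in that order. Some other pairs depended on the adjustment or on that mouse. Mef2a and Mef2d had an r of 0.156 over all mice, 0.796 with the GC trend removed and 0.657 without Sedentary replicate 4, and Mef2a and Hdac5 had -0.0975, 0.651 and 0.478.

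**Figure D3:**
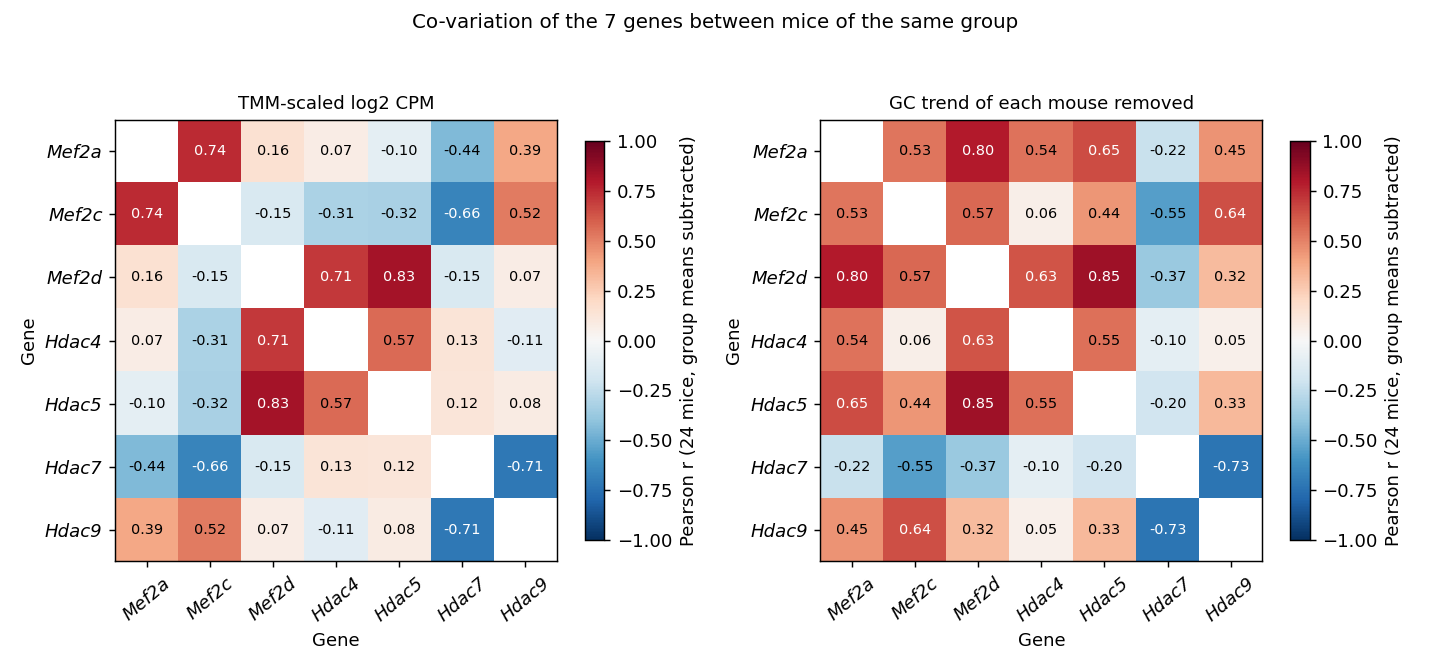
Pearson r between the members over 24 mice after group means were subtracted, from TMM-scaled log2 CPM (left) and with the GC trend of each mouse removed (right), on a color scale from blue (negative) to red (positive). Mef2d with Hdac5 (0.829 and 0.848) and Hdac7 with Hdac9 (-0.711 and -0.730) are alike on both sides, and Mef2a with Mef2d (0.156 and 0.796) is not.

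The genes most like each member by this measure, among 15108 genes over 24 mice, were Pgm2l1 (r = 0.945) and Qser1 (0.942) for Mef2a, and Shoc2 (0.933) and Capn7 (0.929) for Mef2c. For Mef2d it was Eif4g1 (0.895), and the others were for Hdac4 Dnmbp (0.842) and Sec31b (0.821), and for Hdac5 Kif1c (0.907) and Zfp651 (0.907). For Hdac7 they were Impdh1 (0.884) and Map6 (0.868), and for Hdac9 Mc5r (0.898) and Chac1 (0.860). Without the mouse farthest from its group mean in the member, the first gene named for each had an r of 0.931, 0.865, 0.865, 0.784, 0.835, 0.857 and 0.877 in the same order.

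The members lie on 7 chromosomes of GRCm38 (GENCODE M21). Mef2a (ENSMUSG00000030557) is on the minus strand of chromosome 7 from 67231163 to 67372858, Mef2c (ENSMUSG00000005583) on the plus strand of chromosome 13 from 83504034 to 83667080, and Mef2d (ENSMUSG00000001419) on the plus strand of chromosome 3 from 88142372 to 88172086. Hdac4 (ENSMUSG00000026313) is on the minus strand of chromosome 1 from 91928779 to 92195699, and Hdac5 (ENSMUSG00000008855) on the minus strand of chromosome 11 from 102194432 to 102230166. Hdac7 (ENSMUSG00000022475) is on the minus strand of chromosome 15 from 97792664 to 97844502, and Hdac9 (ENSMUSG00000004698) on the minus strand of chromosome 12 from 34047580 to 34917095. The GC content of the longest transcript was 42.0% for Mef2a, 40.8% for Mef2c, 45.0% for Hdac9, 52.5% for Hdac4, 55.0% for Mef2d, 59.8% for Hdac5 and 60.2% for Hdac7. Annotated exons overlap those of Lysmd4 for Mef2a (302 bases, opposite strand), 1700113A16Rik for Mef2d (531 bases, opposite strand), Slc48a1 for Hdac7 (29 bases, opposite strand) and Mir8101 for Hdac5 (111 bases, same strand, with 0 counts in every mouse). No such overlap of exons was found for Mef2c, Hdac4 or Hdac9.

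MEF2 proteins can bind the promoters of their own family and partners, so the promoters were searched for the MEF2 motif. RefSeq promoters of 300 bases were found for all 7 members (13 promoters), for 20 of the 26 target genes (25 promoters) and for 9 of the 14 denervation genes (11 promoters), and both strands were searched. The MEF2 motif was present in 2 of the 13 member promoters, in 5 of the 25 target promoters (Jun, Klf2, Myoz2, Pgam2 and Srpk3) and in 0 of the 11 denervation promoters, beside 3.19% of all 32851 promoters. A match describes the letters in this window and was not tested as a binding site. The promoters of Mef2a and Hdac5 are shown as the members with a match, and those of Klf2 and Jun as targets whose levels differed between fatigued and sedentary muscle, all 5′ to 3′ on the strand of the gene with the motif in capitals. They are Mef2a at chr7:67372809-67373108 (minus strand), Hdac5 at chr11:102230123-102230422 (minus), Klf2 at chr8:72318812-72319111 (plus) and Jun at chr4:95052173-95052472 (minus), in build GRCm38.p6. The match begins 2 bases before the RefSeq start, which can differ from the GENCODE start given above, in Mef2a, 20 in Hdac5, 118 in Klf2 and 33 in Jun.
Mef2a: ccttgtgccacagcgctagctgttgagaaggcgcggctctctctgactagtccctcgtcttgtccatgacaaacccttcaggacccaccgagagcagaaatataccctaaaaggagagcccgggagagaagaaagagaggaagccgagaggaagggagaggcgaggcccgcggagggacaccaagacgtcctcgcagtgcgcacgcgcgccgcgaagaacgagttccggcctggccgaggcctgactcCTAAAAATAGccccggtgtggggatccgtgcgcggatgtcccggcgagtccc
Hdac5: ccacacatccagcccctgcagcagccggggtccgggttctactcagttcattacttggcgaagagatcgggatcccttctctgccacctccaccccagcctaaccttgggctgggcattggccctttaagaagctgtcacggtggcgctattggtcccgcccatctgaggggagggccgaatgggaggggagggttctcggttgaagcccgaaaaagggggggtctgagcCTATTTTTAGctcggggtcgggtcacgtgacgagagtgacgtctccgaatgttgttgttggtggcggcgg
Klf2: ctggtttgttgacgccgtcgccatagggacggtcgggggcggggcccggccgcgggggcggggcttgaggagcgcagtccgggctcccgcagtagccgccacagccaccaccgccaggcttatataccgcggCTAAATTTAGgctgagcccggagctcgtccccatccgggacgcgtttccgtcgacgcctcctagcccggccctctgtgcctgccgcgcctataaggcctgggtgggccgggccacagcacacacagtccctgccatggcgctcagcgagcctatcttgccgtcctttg
Jun: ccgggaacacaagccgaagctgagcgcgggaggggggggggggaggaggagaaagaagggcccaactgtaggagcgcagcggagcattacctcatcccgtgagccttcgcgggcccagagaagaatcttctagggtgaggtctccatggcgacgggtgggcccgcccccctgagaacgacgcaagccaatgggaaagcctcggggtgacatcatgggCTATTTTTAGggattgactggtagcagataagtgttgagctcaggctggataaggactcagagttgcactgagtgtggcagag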

How the data were processed

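The authors deposited 1 count table per mouse, and the values were taken as counts of reads per Ensembl gene, since they are whole numbers with a different total in each mouse. The submitters' processing notes name Trimmomatic, STAR 2.7.1a, Picard 2.20.4, StringTie 2.0.4, featureCounts 1.6.0, HTSeq and build GRCm38, without their order or a strand setting. Whether reads or read pairs were counted is not stated. Of 55487 identifiers, 55227 matched GENCODE M21 (GRCm38), which gave symbols, union exonic lengths and the GC content of the longest transcript. Count tables of mice in a group differed by far more than sampling noise in each pair.

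Tests used R 4.3.3 with edgeR 4.0.16: genes kept by filterByExpr (minimum count 10) were scaled by TMM and given 2-sided quasi-likelihood F tests with robust fits, and p-values of all tested genes were adjusted together (Benjamini-Hochberg, threshold 0.05). Each PBMT comparison was fitted in the 12 mice of its project, and the other comparisons in all 24 mice as 4 group means. CPM used TMM factors over all 24 mice, and logarithms a prior count of 2. Intervals are 95% intervals from the SE and the t quantile. For members an exact permutation test compared 6 mice with 6 (2-sided, 924 arrangements). The test was tested on simulated data. Of 200 genes changed 1.5-fold there, 58.5% were recovered in the sedentary and 51.5% in the fatigued PBMT comparison, and 31.5% in their difference. Of the genes called, 4.10%, 0.962% and 10% were false in that order. Changes of that size can thus be missed.

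Genes named in the text are the members and Mef2b, and from each list up to 3 genes per direction with the smallest edgeR p among those that passed, or otherwise the 1 gene with the smallest p. Added to these are the 2 genes most correlated with each member, genes whose exons overlap a member, and genes shared by lists. Markers that lead a sum, are at 0 or were lower are named as well. Ensembl symbols were used throughout. The members and the lists were chosen with earlier results of these data known. Promoter sequences came from RefSeq (build GRCm38.p6).

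The comparisons of members, partner lists and all genes were recomputed without the filter, on genes with 10 or more counts in every mouse, with the size factors of DESeq2, DESeq2 1.42.0, limma 3.58.1 voom with sample quality weights, a block for replicate number, the length trend or the GC trend removed (loess, span 0.3), block and length removal together, all 24 mice or only the 12 compared, and leaving out each mouse in turn. For correlations between members, removal of the GC trend and leaving out Sedentary replicate 4 were added after seeing the data. Tables and plots used Python 3.11.15 with numpy 2.4.6, pandas 2.3.3, scipy 1.17.1 and matplotlib 3.10.9. Behavioral and histological data were not analysed.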

Additional observations from a re-analysis of the deposited data

Results flagged for a closer look

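In 3 cases, 1 mouse lay far from the other 5 of its group, judged by the gap to its nearest neighbor as a share of the range of the group. Chance gives such a gap in about 1 in 20 groups, and 28 groups of 6 mice (7 members in 4 groups) were examined. Mef2a was at 123 CPM in PBM Sedentary replicate 2, below the other mice of that group. Mef2c was at 439 CPM in Sedentary replicate 4, below the other controls. Hdac5 was at 97.1 CPM in Sedentary replicate 4, above the other controls. The causes were not tested.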

How the results depend on the processing

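Counts of members that passed stayed at 0 of 7 in both PBMT comparisons and in their difference under all alternatives and without each mouse. In Fatigue against Sedentary mice, 2 members passed, and 1 with no filter, 5 with limma voom, 1 with the length trend removed, 0 with the GC trend removed, 1 with block and length removal together, 1 in the fit to the 12 mice compared, and 0 to 4 without 1 mouse. In PBM Fatigue against PBM Sedentary mice, 3 passed, and 4 with DESeq2, 5 with limma voom, 4 with the length trend removed, 2 with the GC trend removed and 2 to 5 without 1 mouse. Except for the counts given below, the share of all genes called under each setting does not stand beside these counts. They describe the settings and are not read as results about the members.

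Signs turned for members with small differences, none of which had passed in the main edgeR fit. In PBM Sedentary against Sedentary mice, Hdac5 turned to 0.0840 with limma voom, 0.00440 with the replicate block and 0.0791 with the GC trend removed. In PBM Fatigue against Fatigue mice it turned to 0.0140 with limma voom. In the difference of effects, Hdac5 turned to -0.00119 with no filter, -0.0741 with limma voom, -0.00700 with the block and -0.0964 with the GC trend removed, and Mef2d to -0.00682 with limma voom and -0.0664 with the GC trend removed. In Fatigue against Sedentary mice, Mef2a turned to -0.0568 with limma voom, -0.0763 with the length trend removed and -0.0765 with block and length removal. Hdac5 turned to -0.0340 with the length trend removed, -0.0437 with the GC trend removed and -0.0202 with block and length removal, and Mef2c to 0.00982 with the GC trend removed. In PBM Fatigue against PBM Sedentary mice, Mef2d turned to -0.0155 and Hdac5 to -0.14 with the GC trend removed.

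Without 1 mouse, log2 differences of members whose sign turned ran as follows. In PBM Sedentary against Sedentary mice they ran from -0.14 to 0.0437 for Hdac4, -0.0703 to 0.11 for Hdac5, -0.00179 to 0.19 for Hdac7 and -0.00835 to 0.0519 for Mef2d. In PBM Fatigue against Fatigue mice they ran from -0.00371 to 0.0853 for Mef2a, -0.0461 to 0.0499 for Hdac5 and -0.0494 to 0.18 for Hdac7. In the difference of effects they ran from -0.0214 to 0.0485 for Mef2d, -0.12 to 0.0687 for Hdac5 and -0.13 to 0.0999 for Hdac7, and in Fatigue against Sedentary mice from -0.0480 to 0.0690 for Mef2a. The cause was not tested.

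Genes called over all genes in PBM Sedentary against Sedentary mice were 4, and 16 with no filter, 60 with DESeq2, 50 with limma voom, 12 with the length trend removed, 16 with the GC trend removed, 1 in the fit to all 24 mice, and 2 to 20 without 1 mouse. In PBM Fatigue against Fatigue mice, DESeq2 gave 2 in place of 0. In the difference of effects, 1 gene was called, 0 with the length trend removed and 3 without PBM Sedentary replicate 2. In Fatigue against Sedentary mice, limma voom called 4945 genes in place of 2809, and 2078 to 3770 were called without 1 mouse. The share of higher genes in that comparison was 48.9%, and 40.4% with the length trend removed, 41.0% with block and length removal together. With PBMT it was 52.7%, and 41.5% with the length trend removed and 40.4% with block and length removal together. The median log2 difference of all genes moved by under 0.1 in every alternative.

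The labels do not say that replicate numbers pair the mice. Around their group means, Fatigue and PBM Fatigue mice of the same number had profile correlations from -0.0846 to 0.325, and 3 of 6 were most like their own number. The other pairs of groups had correlations from -0.272 to 0.0664, with 1 of 6 or 0 of 6 most like their own number. With the replicate block, 11 genes passed in PBM Sedentary against Sedentary, 1 in PBM Fatigue against Fatigue, 2561 in Fatigue against Sedentary and 3760 in PBM Fatigue against PBM Sedentary mice, and 13 and 1 in the first pair with the length trend also removed.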
